A study of Mus musculus with 5 samples.

Results

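The 10 genes described here carry the signal of leukemia inhibitory factor (LIF) in mouse embryonic stem cells, from its receptor to the feedback that ends it. They were taken as a list of names, without a threshold on their values but with earlier results of these data known. The list holds Lifr and Il6st for the receptor, Jak1, Jak2 and Tyk2 for the kinases, and Stat3 and Bcl3 for transcription. Socs3 and Socs2 stand for feedback, and Ptpn11 for the phosphatase branch. All 10 were found among 21930 genes with a value in every library. Their transcripts were measured by sequencing mRNA of E14 embryonic stem cells in 5 libraries, 1 per group. Normal E14 cells and E14 cells labelled as overexpressing Hk2 (hexokinase 2) and Pkm2 (pyruvate kinase M2) were each cultured with LIF, and each were also kept 24 hours without LIF, after which LIF was added. The time from that addition to the harvest is not stated in the labels, and these libraries are called the 24 hour withdrawal libraries below. The fifth library came from the overexpressing cells after 40 days without LIF. The strain is given as C57BL/6 for all 5. The labels name neither the vector nor the number of clones behind the overexpressing cells, and "overexpressing" below is the label's word.

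LIF binds the receptor chain encoded by Lifr, which then pairs with gp130, the shared signalling chain of the interleukin 6 family encoded by Il6st. JAK kinases bound to the receptor chains phosphorylate STAT3, which enters the nucleus and activates genes that hold mouse embryonic stem cells in an undifferentiated state. Among its targets is Socs3, which encodes an inhibitor that binds the receptor complex and damps the signal.

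The level of a gene is its FPKM (fragments counted on a transcript, divided by its length in kilobases and by the library's mapped fragments), summed over its RefSeq transcripts. Because each group is a single library, differences between a pair of libraries were not tested. A gene was counted as different when log2(FPKM + 1) differed by at least 1 (2-fold), a scale that understates the ratio of low genes. Genes with a mean of at least 1 FPKM over the libraries were compared, 9590 in all, and 9 of the 10 listed genes were among them. Jak2, with a mean of 0.749 FPKM, was not.

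The depth was estimated at 35100000 to 39200000 fragments per library. All 10 embryonic stem cell markers were at 1 FPKM or more in every library, with a summed level of 3095 to 3512 FPKM in the 4 shorter cultures and 2212 FPKM at 40 days. At least 2-fold lower than with LIF were 3 of the 10 after withdrawal in normal cells, 2 in overexpressing cells and 5 at 40 days. Of all 9590 genes, 5.51%, 6.07% and 8.31% were lower in these comparisons. Zfp42 was at 266 and 278 FPKM in normal and overexpressing cells with LIF, 118 and 128 FPKM after withdrawal and 40.9 FPKM at 40 days, and Nanog at 150.01 and 183 FPKM, then 59.3 and 54.5 FPKM, and 29.6 FPKM. Utf1 was higher after withdrawal, at 505 and 499 FPKM against 411 and 318 FPKM with LIF. Dppa5a (log2 ratio 0.020) and Fgf4 (0.0012) were near 0 in normal cells. The median log2 ratio of the 10 after withdrawal was -0.10 in normal cells and -0.29 in overexpressing cells. Zfp42 and Nanog moved with the withdrawal differences below, and the part of such markers in them was not tested. The 10 fibroblast or feeder markers summed to 1.41 to 10.2 FPKM, and the 5 immune markers in the table to 0.521 to 1.27 FPKM. Of the fibroblast markers, Postn was at 0 in the 4 shorter cultures. Thy1, the only 1 with a mean of at least 1 FPKM, was higher in overexpressing than in normal cells. It was at 2.54 against 0.792 FPKM with LIF and 4.32 against 1.27 FPKM after withdrawal. Pdgfra was at 4.20 FPKM at 40 days, against 0.110 FPKM in overexpressing cells with LIF. The 10 endoderm markers summed to 3.25 to 5.39 FPKM in the 4 shorter cultures and to 159 FPKM at 40 days, where 7 of them reached 1 FPKM and Sox17 and Afp were listed at 0. In such bulk libraries, fewer cells of a type and less RNA per cell cannot be told apart.

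STAT3 dimers bind the palindrome TTCNNNGAA, so the stretch before the start of Socs3 is shown, with that motif in capitals. The same distance before Bcl3 is shown beside it because Bcl3 had the profile nearest to that of Socs3. Both sequences are from RefSeq, run 5′ to 3′ on the minus strand from 214 to 86 bases before the RefSeq start, and were placed in mm9 by exact match.
Socs3, chr11:117830766-117830894: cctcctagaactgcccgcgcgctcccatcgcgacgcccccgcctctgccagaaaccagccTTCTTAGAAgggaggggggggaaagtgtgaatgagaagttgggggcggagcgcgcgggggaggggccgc
Bcl3, chr7:20408190-20408318: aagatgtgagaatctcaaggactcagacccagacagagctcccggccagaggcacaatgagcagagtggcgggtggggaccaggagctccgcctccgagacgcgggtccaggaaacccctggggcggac

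The Socs3 match begins 154 bases before the start. Its stretch lies in an intron of a non-coding Socs3 transcript in the GENCODE vM1 annotation and overlaps no exon, and the Bcl3 stretch overlaps no annotated transcript. The motif, which reads the same on both strands, was searched in the 250 bases before each start in a RefSeq promoter table (GRCm38.p6). It was present for 1 of the 9 listed genes that the table holds, Socs3, for 1 of 8 listed STAT3 targets in the table, Zfp36, and for 8.13% of all 27025 genes. A match describes letters and not a bound site, and the absence of a match in Bcl3 says only that these letters are not in that window.

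**Figure D1:**
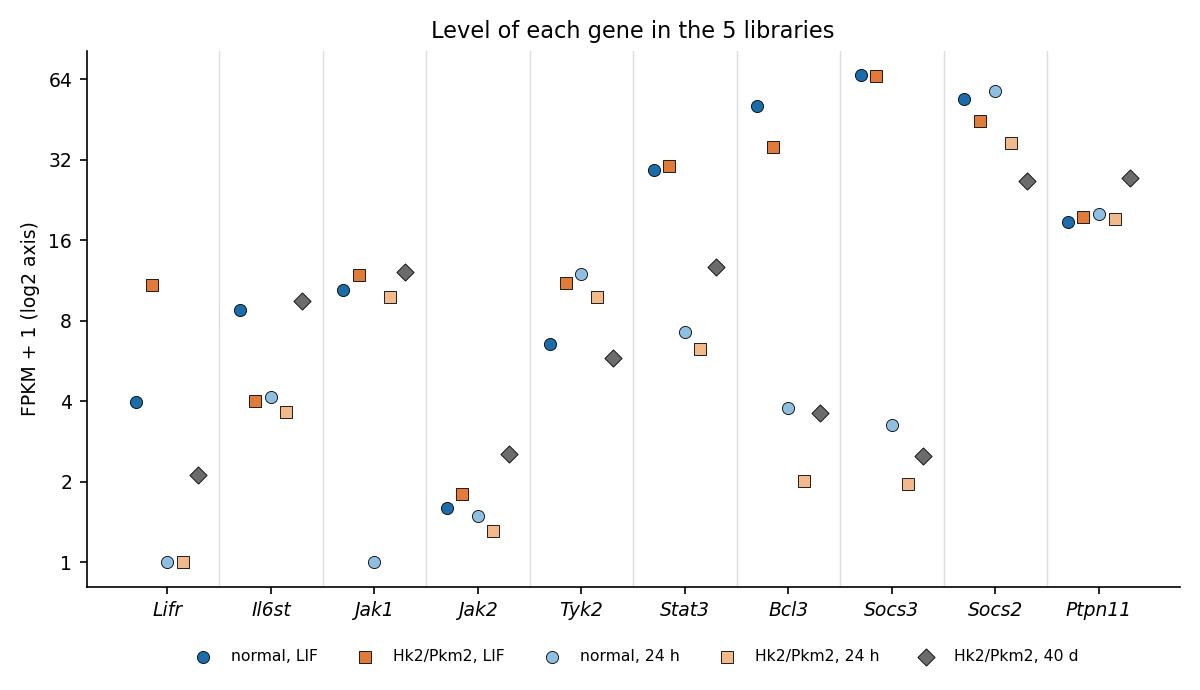
FPKM + 1 of each of the 10 genes (log2 axis) in each of the 5 libraries, 1 point per library. Socs3 was at 65.3 and 64.8 FPKM in the libraries with LIF and between 0.970 and 2.25 FPKM in the other 3, while Ptpn11 stayed between 17.7 and 26.3 FPKM; a point at 1 is a gene listed at 0.

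Of the feedback genes, Socs3 was far lower in every library without continuous LIF, while Socs2 was not. Socs3, the inhibitor that binds gp130 and JAK, was measured at 65.3 FPKM in normal and 64.8 FPKM in overexpressing cells with LIF, at 2.25 FPKM and 0.970 FPKM in the respective 24 hour withdrawal libraries, and at 1.50 FPKM at 40 days. Both libraries with LIF lay above all 3 others, and they differed from each other by a ratio of 1.01. The ratio of FPKM between LIF and withdrawal was 29.1 in normal cells and 66.8 in overexpressing cells. At the estimated depth, the lowest value stands for about 87 fragments of the longest annotated transcript, so Socs3 was still detected there. Socs3 maps to chr11:117827393-117831361, minus strand (mm9, as all gene positions here, each gene being protein-coding).

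Socs2, a SOCS protein best known for limiting growth hormone signalling, had 53.2 FPKM with LIF and 57.0 FPKM after withdrawal in normal cells. In overexpressing cells it was at 43.6 FPKM with LIF, 36.1 FPKM after withdrawal and 25.8 FPKM at 40 days. The 3 overexpressing libraries were all below both normal ones, and no pair of libraries compared differed 2-fold. Socs2 was the highest of the 10 genes in both 24 hour withdrawal libraries, where Socs3, the highest with LIF, ranked 7 and 8 of the 10. At 40 days Ptpn11 was slightly above it. Socs2 maps to chr10:94847996-94879814, minus strand.

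The transcription factors of the list were both lower without continuous LIF. Stat3, whose product carries the LIF signal into the nucleus, had 28.2 FPKM in normal and 29.3 FPKM in overexpressing cells with LIF, 6.26 and 5.28 FPKM in the same cells after withdrawal, and 11.7 FPKM at 40 days. The libraries with LIF were close to each other and above the rest, with the 40 day library between them and the withdrawal libraries. The ratio of FPKM was 4.50 for withdrawal in normal cells and 5.55 in overexpressing cells. Stat3 maps to chr11:100746412-100800854, minus strand, and its annotation overlaps that of Stat5a on the other strand by 72 bases.

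Bcl3, an atypical IκB protein that works with NF-κB subunits in the nucleus, had 49.8 FPKM in normal and 34.9 FPKM in overexpressing cells with LIF. After withdrawal these were 2.77 and 1.005 FPKM, and the 40 day library had 2.62 FPKM. As for Socs3, both libraries with LIF were above all 3 others, and the overexpressing library was the lower of each pair. The ratio of FPKM was 18.0 for withdrawal in normal cells and 34.7 in overexpressing cells. Bcl3 maps to chr7:20393811-20408119, minus strand. A pair of non-coding genes on the other strand overlap it by 2264 and 2073 bases, and reads of the strands are not separated in this kind of library.

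The receptor chains differed from each other in their order over the libraries. Lifr was at 2.96 FPKM in normal and 9.85 FPKM in overexpressing cells with LIF, was listed at 0 in both 24 hour withdrawal libraries, and was at 1.12 FPKM at 40 days. Both libraries with LIF were above the others, and they differed from each other by a ratio of 3.33. An exact 0 in this table can be a failed estimate, and 749 of the 9590 genes have at least 1. The level in overexpressing cells with LIF stands for about 3730 fragments of the longest annotated transcript, so the 0 values are given as listed, with no ratio of FPKM. Log2 differences against them are printed where a count or fit uses them, and their size is set by the pseudocount. All of the signal was assigned to NM_013584, while NM_001113386, the other Lifr transcript in the table, was listed at 0 throughout. Lifr maps to chr15:7079559-7147489, plus strand.

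Il6st, which encodes gp130, had 7.74 FPKM with LIF and 3.16 FPKM after withdrawal in normal cells, stood at 3.01 and 2.65 FPKM in overexpressing cells with LIF and after withdrawal, and at 8.50 FPKM at 40 days. Normal cells with LIF and the 40 day library were high and the other 3 were low. The ratio of FPKM for withdrawal was 2.45 in normal cells and 1.14 in overexpressing cells. Il6st maps to chr13:113265216-113297068, plus strand.

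Among the kinases, Jak1, the kinase that gp130 signalling relies on most, was at 9.45 and 10.9 FPKM in normal and overexpressing cells with LIF, 8.83 FPKM in overexpressing cells after withdrawal and 11.2 FPKM at 40 days. It was listed at 0 in normal cells after withdrawal, while the other 4 libraries lay within a narrow range. Of 4196 genes with at least 8 FPKM in each of the other 4 libraries, 17 (0.405%) were listed at 0 in that library. For the other libraries this share ran from 0.286% to 0.581%. Every Jak1 difference that reached 2-fold used this 0. Jak1 maps to chr4:100824972-100937887, minus strand.

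Tyk2, a further kinase of the family, had 5.55 FPKM with LIF and 11.0 FPKM after withdrawal in normal cells. In overexpressing cells it was at 10.04, 8.85 and 4.80 FPKM with LIF, after withdrawal and at 40 days. Normal cells with LIF and the 40 day library were the low ones, the reverse of Il6st. No pair compared differed 2-fold on the log2(FPKM + 1) scale, though the plain FPKM ratio of LIF to 40 days in overexpressing cells was 2.09. Tyk2 maps to chr9:20908521-20931790, minus strand, and a non-coding gene on the other strand overlaps 23270 bases of it. Jak2, the kinase best known from receptors of blood cell cytokines, was at 0.599 and 0.799 FPKM in normal and overexpressing cells with LIF, 0.495 and 0.310 FPKM after withdrawal, and 1.54 FPKM at 40 days. It was the lowest of the 10 genes in both libraries with LIF. Jak2 maps to chr19:29326318-29387570, plus strand.

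Ptpn11 encodes SHP2, the phosphatase that links gp130 to the RAS and ERK branch. It was at 17.7 and 19.1 FPKM in normal cells with LIF and after withdrawal, at 18.6 and 18.2 FPKM in overexpressing cells, and at 26.3 FPKM at 40 days. The 4 shorter cultures were close together and the 40 day library was above overexpressing cells with LIF by a ratio of 1.42. The highest and lowest library differed by a ratio of 1.49, the smallest among the 8 listed genes never at 0. Ptpn11 maps to chr5:121580542-121641406, minus strand.

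**Figure D2:**
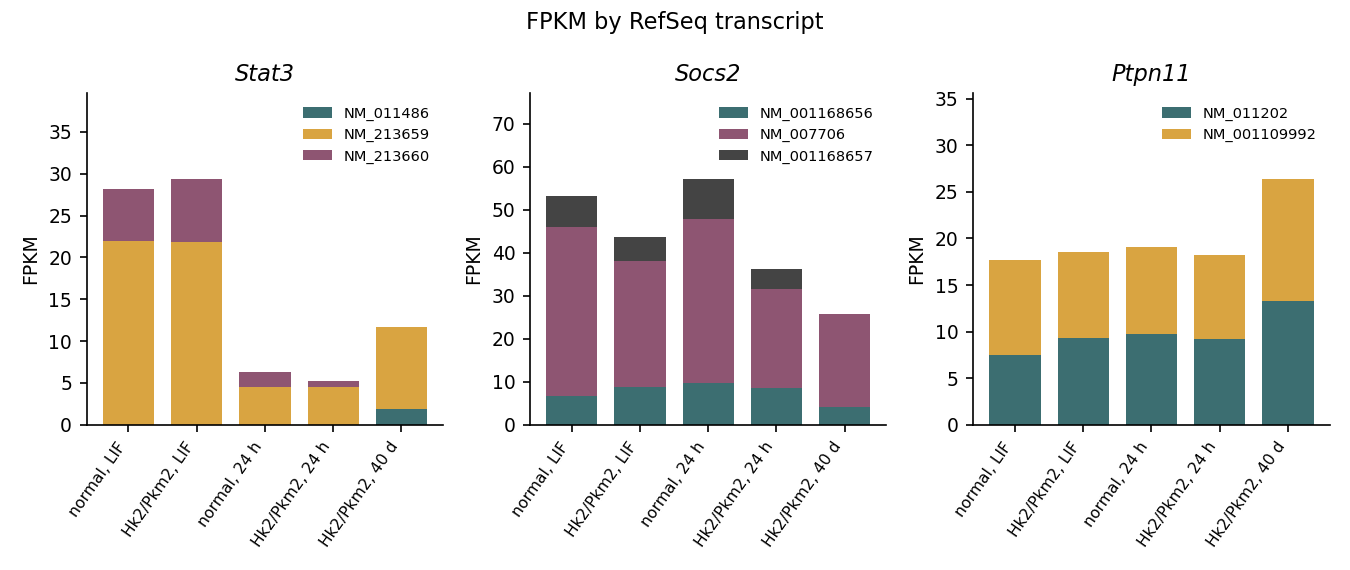
FPKM of each RefSeq transcript of Stat3, Socs2 and Ptpn11, stacked to the gene's sum, in the 5 libraries. For Stat3 both transcripts above 0 with LIF were low after withdrawal, and at 40 days NM_213660 was listed at 0 and NM_011486 had 1.90 FPKM.

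Both detected Stat3 transcripts were lower after withdrawal. NM_213659 had 22.0 and 21.9 FPKM in normal and overexpressing cells with LIF and 4.51 and 4.56 FPKM after withdrawal. NM_213660 had 6.21 and 7.45 FPKM with LIF and 1.75 and 0.716 FPKM after withdrawal. The first thus held 72.1% to 86.4% of the Stat3 sum in those 4 libraries, and 83.8% at 40 days. At 40 days the remainder was assigned to NM_011486, which was listed at 0 in the other 4 libraries.

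For Socs2, NM_007706 held 64.03% to 83.8% of the sum, NM_001168657 was listed at 0 at 40 days against 4.50 to 9.12 FPKM elsewhere, and NM_001168655 was listed at 0 throughout. The Ptpn11 transcripts NM_011202 and NM_001109992 held close to equal parts, the first between 42.7% and 51.2%. A split between overlapping transcripts is an estimate of the authors' program, and its error is unknown here.

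**Figure D3:**
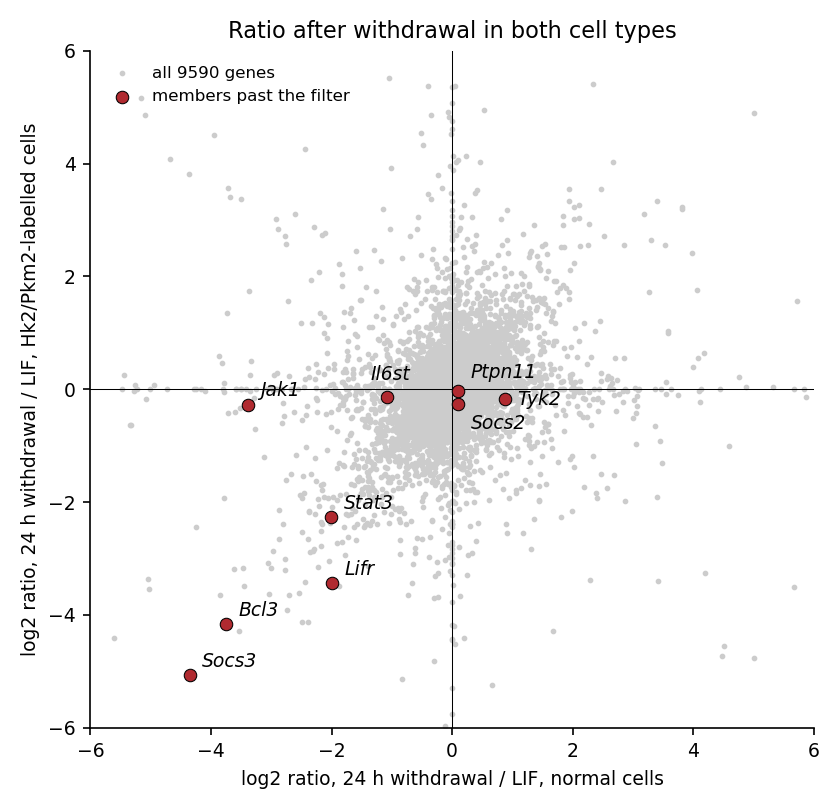
Log2 ratio of FPKM + 1 between the 24 hour withdrawal and LIF libraries in normal cells (x axis) and in overexpressing cells (y axis), for 9590 genes in grey and the 9 listed genes among them in red; 18 genes lie outside the axes. Socs3, Bcl3, Lifr and Stat3 sit at the lower left, between -1.99 and -4.35 in normal cells and between -2.27 and -5.06 in overexpressing cells. Both Lifr values use a listed 0, so its position is set by the pseudocount.

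In normal cells, 6 of the 9 listed genes were at least 2-fold lower after withdrawal and none was higher, where 5.51% of all genes were lower and 4.62% higher. The 6 were Socs3, Bcl3, Jak1, Stat3, Lifr and Il6st, of which Jak1 and Lifr used a listed 0. In overexpressing cells 4 of 9 were lower (Socs3, Bcl3, Lifr and Stat3) and none higher, against 6.07% and 5.79% of all genes. Lifr used a listed 0 here too. Among the 7 genes above 0 in all libraries, 4 were lower in normal cells and 3 in overexpressing cells. The median log2 ratio of the 9 was -1.99 in normal cells and -0.27 in overexpressing cells, beside medians over all genes of -0.0055 and 0.0042. The first is the value of Lifr, from a listed 0, and over the 7 genes above 0 in all libraries the medians were -1.07 and -0.27. The list was chosen with earlier results of these data known, so these counts describe it.

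Across both cell types, limma (4 libraries, cell type and culture as factors) gave log2 differences for withdrawal of -4.71 ± 0.25 for Socs3, -3.96 ± 0.18 for Bcl3 and -2.14 ± 0.13 for Stat3 (SE). All 3 had a limma adjusted p of 0.324 over all genes, and Lifr (-2.71 ± 0.49) one of 0.345. The Lifr value rests on both listed 0 values and was -5.79 with a pseudocount of 0.1. Ptpn11 differed by 0.037 ± 0.10, with a 95% interval of -0.33 to 0.40, and Socs2 by -0.085 ± 0.14, with an interval of -0.58 to 0.41. Of the 9590 genes 0 passed limma at an adjusted p of 0.05 for withdrawal, so no listed gene did, and 1154 (12%) had an unadjusted p under 0.05, among them 4 of the 9 listed genes. The fit has 1 residual degree of freedom, which holds the interaction of both factors, so its p-values measure agreement over these cultures only.

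Between the cell types fewer of the listed genes differed 2-fold. With LIF, Lifr was at least 2-fold higher and Il6st at least 2-fold lower in overexpressing cells, 1 of 9 in each direction, where 4.11% of all genes were higher and 5.32% lower. After withdrawal Jak1, through its listed 0, was higher, and none was lower, against 4.19% and 5.18% of all genes. In plain FPKM, Bcl3 and Socs3 were lower there by ratios of 2.76 and 2.32, at low levels. Over both cultures the limma estimate for Bcl3 was -0.71 ± 0.18 and for Socs2 -0.46 ± 0.14, at limma adjusted p values of 0.52 and 0.523. Stat3 (-0.077 ± 0.13, 95% interval -0.56 to 0.41) and Ptpn11 (0.0010 ± 0.10, interval -0.36 to 0.37) lay near 0. For this factor 0 genes passed limma, and 918 (9.57%) had an unadjusted p under 0.05, Bcl3 being the only listed one. Whether the response to withdrawal differed by cell type could not be tested, since that difference is the residual of the fit.

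At 40 days without LIF, 4 of the 9 listed genes were at least 2-fold lower than in overexpressing cells with LIF, where 8.31% of all genes were lower. They were Socs3 (log2 ratio -4.72), Bcl3 (-3.31), Lifr (-2.36) and Stat3 (-1.25). Il6st (1.24) was the only one higher, where 14% of all genes were higher. Against the 24 hour withdrawal library of the same cells, Il6st (1.38), Lifr (1.08, from a listed 0) and Stat3 (1.02) were at least 2-fold higher and none was lower, against 12.1% and 5.78% of all genes. Socs3 differed by 0.34 and Bcl3 by 0.85 there. These comparisons share the 40 day library.

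The endoderm markers that summed to 159 FPKM in the 40 day library, led by Dab2 (52.0 FPKM), Cubn (40.1 FPKM) and Gata4 (25.6 FPKM), moved with these values, and their part in them was not tested. With quantile normalization, Il6st alone stayed at least 2-fold higher than after 24 hours, and Tyk2 became at least 2-fold lower. Stat3 was at 0.86 there, and at 0.95 with median-of-ratios scaling. Quantile normalization moved the median log2 ratio of all genes by -0.11 against LIF and by -0.12 against 24 hours. It also moved the share of higher genes among those 2-fold different from 62.8% to 52.3% and from 67.6% to 54.05%.

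Among the other genes of the pathway, the STAT3 targets held most of the 2-fold differences after withdrawal. Of 12 targets, 6 were at least 2-fold lower after withdrawal in normal cells and 6 in overexpressing cells, with 1 and none higher, and the median log2 ratios were -0.87 and -0.85. Over all genes 5.51% and 6.07% were lower, with the medians near 0 given above. The targets, like the other lists, were chosen with earlier results of these data known, so the counts describe them. Klf4, a naive pluripotency factor, was at 53.1 and 63.5 FPKM in normal and overexpressing cells with LIF, at 5.48 and 6.66 FPKM after withdrawal, and at 12.3 FPKM at 40 days. Tfcp2l1, a transcription factor that sustains self-renewal downstream of LIF, was at 59.04 and 68.6 FPKM, then 12.4 and 9.13 FPKM, and 5.87 FPKM at 40 days. Junb, an AP-1 subunit, was at 64.01 and 33.6 FPKM, then 13.3 and 5.76 FPKM, and 21.8 FPKM at 40 days. For each of these 3 genes, both libraries with LIF were above the other 3. Klf5, Gbx2 and Pim3 were the other genes counted as lower in both cell types, and 1 of the 12, Sall4, is also among the embryonic stem cell markers above. At 40 days Gbx2, a homeobox factor, was the lowest against LIF after Tfcp2l1 (log2 ratios -3.28 and -3.34). After withdrawal Junb was also at least 2-fold lower in overexpressing than in normal cells (-1.09).

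Not all of the targets did so. Myc was at 35.9 and 36.1 FPKM in the libraries with LIF against 53.8 and 48.8 FPKM after withdrawal, and Mcl1, a survival factor, at 133 and 116 FPKM against 146 and 143 FPKM. Pim1, a kinase, was at 31.5 and 26.4 FPKM, then 25.9 and 18.1 FPKM, and 77.2 FPKM at 40 days, its highest level. The target counted as higher in normal cells, Cebpd, was listed at 0 in 3 libraries. In limma none of the 12 passed for withdrawal, with 6 lower and 1 higher at an unadjusted p under 0.05.

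**Figure D4:**
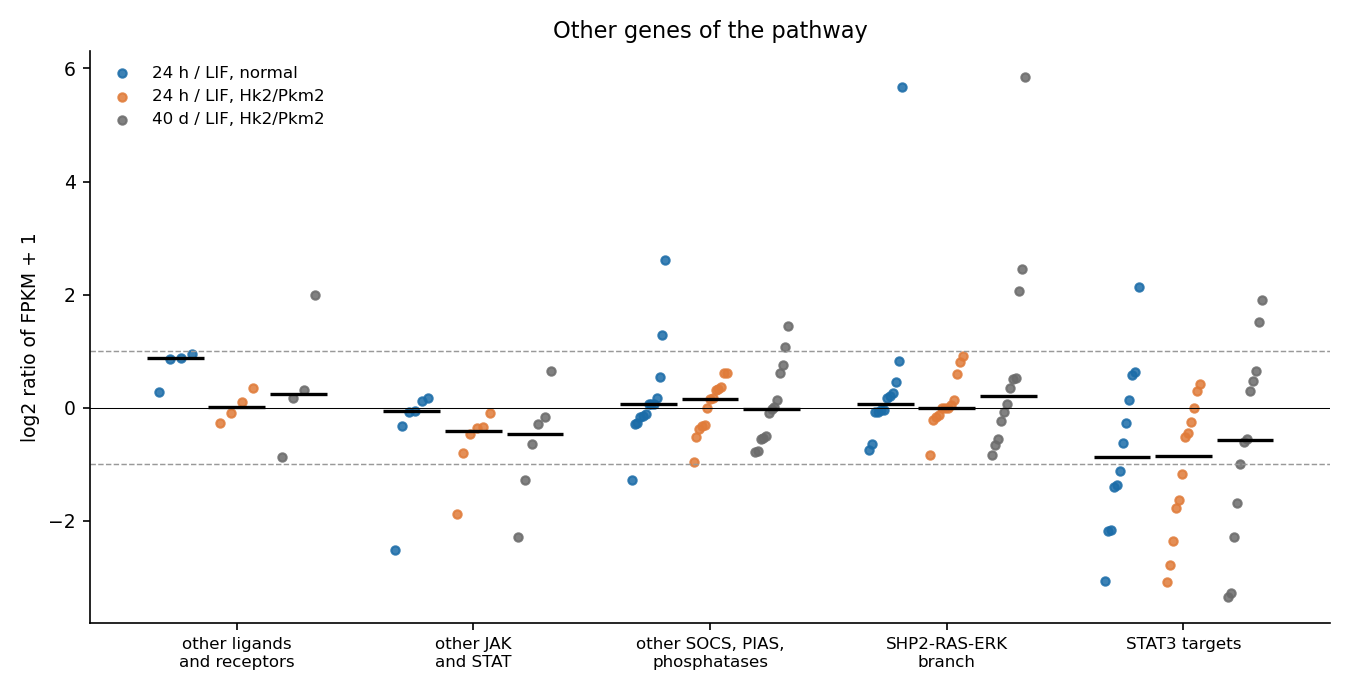
Log2 ratio of FPKM + 1 for genes of 5 further lists past the filter, 1 point per gene, for 24 hour withdrawal in normal (blue) and overexpressing (orange) cells and for 40 days without LIF (grey), all against LIF; black bars are medians and dashed lines mark 2-fold. STAT3 targets have medians of -0.87 and -0.85 after withdrawal; the outlying points at 5.67 and 5.85 are Gab1, listed at 0 in the libraries with LIF.

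Of the other JAK and STAT genes, 6 of 7 passed the filter, and Jak3, the kinase paired with the common gamma chain in lymphocytes, was the 1 at least 2-fold lower after withdrawal in each cell type. It was at 19.3 and 15.3 FPKM in normal and overexpressing cells with LIF, 2.56 and 3.43 FPKM after withdrawal and 2.36 FPKM at 40 days. In both libraries with LIF, Jak3 was above Jak1, Jak2 and Tyk2 in FPKM, and in the other 3 it was below Tyk2. Its limma difference for withdrawal was -2.20 ± 0.24 at a limma adjusted p of 0.324. Stat6 ranged from 6.64 to 10.9 FPKM. At 40 days Stat2 (log2 ratio -1.28 against LIF) was also lower, and Stat5b (1.45 against 24 hours) was higher. Of all genes, 8.31% were lower against LIF and 12.1% higher against 24 hours.

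Of 14 other feedback genes (SOCS, PIAS and phosphatase genes), 13 passed the filter. Cish, a SOCS family member, was at 5.94 and 3.85 FPKM in normal and overexpressing cells with LIF, 1.88 and 1.50 FPKM after withdrawal and 2.44 FPKM at 40 days, and reached 2-fold in normal cells. Socs6 and Socs4 were higher there, the latter from a listed 0, where 4.62% of all genes were higher. The same genes were the 2 counted as higher in overexpressing cells with LIF, where 4.11% of all genes were higher. Both comparisons use the library of normal cells with LIF, in which Socs6 was at 1.37 FPKM and Socs4 was listed at 0. They are therefore not separate observations. In overexpressing cells none of the 13 reached 2-fold after withdrawal, though Cish came close (log2 ratio -0.96). With a pseudocount of 0.1, 1 of them was at least 2-fold lower there. Socs1, which like Socs3 inhibits JAK directly, lay between 1.64 and 2.88 FPKM in all libraries. At 40 days Pias2 (1.45) and Sh2b3 (1.07) were at least 2-fold above LIF, and Pias2 (1.09) also above 24 hours. Of all genes, 14% and 12.1% were higher in these comparisons. With quantile normalization, or with only the transcript of highest mean FPKM per gene, the count above LIF was 1. That transcript alone gave a count of 0 above 24 hours.

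Of the 15 genes of the SHP2, RAS and ERK branch, 12 passed. After withdrawal Gab1, an adaptor that binds SHP2, was the only one at least 2-fold different in normal cells, and none was in overexpressing cells. Gab1 was listed at 0 in 3 libraries and had 49.97 FPKM in normal cells after withdrawal and 56.8 FPKM at 40 days, so its differences rest on listed 0 values. Sos1, a RAS exchange factor, was at 6.12 FPKM in normal and 2.55 FPKM in overexpressing cells after withdrawal (log2 ratio -1.002) and at 7.05 FPKM at 40 days. Map2k2, an ERK kinase, was lower at 40 days than after 24 hours (-1.05). Braf, a RAF kinase, was listed at 0 in overexpressing cells with LIF and after withdrawal, which gave its 2-fold differences.

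Of 14 other ligands and receptors of the family, 4 passed. Lif itself lay between 0.261 and 1.48 FPKM, Osmr was under 0.1 FPKM in all libraries, and Cntfr, the receptor of ciliary neurotrophic factor, ranged from 4.23 to 10.7 FPKM.

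The genes most like Socs3, Bcl3, Stat3 and Lifr were sought by the root mean square difference of mean-centred log2(FPKM + 1) over the 5 libraries, among 8841 genes above 0 in all of them. For Socs3 the nearest was Bcl3 (0.49), followed by Gjb5, Spink1, Tfeb and Inhbb (0.80 to 0.92). For Bcl3 the nearest were Gjb5 (0.35), Tfeb (0.48), Socs3 (0.49) and Spink1 (0.51). For Stat3 they were Abca1 (0.15), Ppp2r2a (0.18), Hes1 (0.20), Mllt6 (0.21) and Ada (0.25), and for Lifr Mllt6 (0.32), Tbx3 (0.41), Klf4 (0.44), Kit (0.47) and Stat3 (0.52). Abca1 was low, at 4.11 FPKM (normal) and 3.09 FPKM (overexpressing) under LIF. The respective withdrawal libraries had 0.306 and 0.0837 FPKM, and the 40 day library had 1.19 FPKM. The log2(FPKM + 1) scale understates the ratio of such values, so the likeness of Abca1 to Stat3 depends on the pseudocount. Gjb5, Inhbb and Kit also had values under 1 FPKM. The Lifr profile itself holds 2 listed 0 values, whose distance from its other values is set by the pseudocount. The genes nearest to Lifr therefore rest on values that can be failed estimates. Spink1, a trypsin inhibitor, was among the 5 nearest to both Socs3 and Bcl3, at 105 and 102 FPKM in the libraries with LIF, 8.17 and 4.27 FPKM after withdrawal and 19.8 FPKM at 40 days. The values share libraries, so this likeness describes these 5 cultures.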

How the data were processed

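Messenger RNA was turned into libraries with the TruSeq RNA reagents named in the labels' protocols, which do not mark strand. The deposited values are FPKM per RefSeq transcript, made by the authors with TopHat2 2.0.7 and Cufflinks 2.0.2 on mm9, per the submitters' processing notes. Further settings are not stated there. Of 28698 transcripts, 28066 were paired with a symbol through a RefSeq table (GRCm38.p6), and FPKM was summed per gene. The 337 genes with a hyphen in place of a value were left out. Depth was estimated from the FPKM that 1 fragment gives in genes with 1 transcript. Log2(FPKM + 1) was compared for genes with a mean of at least 1 FPKM, without a test between libraries. Limma 3.58.1 (R 4.3.3, eBayes with trend, Benjamini-Hochberg adjustment over all genes) was fitted to 4 libraries, and was tested on simulated data. The 10 genes and the further lists were chosen with earlier results of these data known. All 10 are named, with list genes at least 2-fold different (up to 4 per list and comparison) and the 5 genes most like Socs3, Bcl3, Stat3 and Lifr. Some genes that this rule names are not reported here. List genes named with smaller differences were chosen after their values were seen. Gene positions are from GENCODE vM1 on mm9. Protein sequences were not used here.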

Additional observations from a re-analysis of the deposited data

Results flagged for a closer look

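Several genes had opposite signs under the same contrast, with 1 library per group, so the difference was not tested. After withdrawal, Tyk2 had a log2 ratio of 0.87 in normal cells and -0.17 in overexpressing cells, Socs2 of 0.098 and -0.27, and Ptpn11 of 0.10 and -0.029. Between cell types, Tyk2 had a log2 ratio of 0.75 with LIF and -0.28 after withdrawal, Stat3 of 0.055 and -0.21, and Ptpn11 of 0.068 and -0.066. None of these values reached 2-fold.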

How the results depend on the processing

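Of 86 recomputed counts of listed genes, 81 were equal or stayed within 1.5 times. These include counts that were 0 before and after, among them every limma count, so the total says little about stability. The other 5 moved, where any change from or to 0 was counted as a move. Over genes above 0 in every library, the count higher in overexpressing cells became 0 both with LIF and after withdrawal, since Lifr and Jak1 then drop out. Over the same genes, the count lower after withdrawal fell from 6 to 4 in normal cells and from 4 to 3 in overexpressing cells. Those falls are within 1.5 times and are not among the 5. With a pseudocount of 0.1, 2 genes (Bcl3 at -1.38 and Socs3 at -1.13) became at least 2-fold lower in overexpressing cells after withdrawal. With quantile normalization, 1 gene was higher and 1 lower at 40 days than at 24 hours. Median-of-ratios scaling put Stat3 at 0.95 there, under 2-fold, and the top transcript alone at 0.96, while a pseudocount of 0.1 put Bcl3 at 1.30. Against LIF, Tyk2 at 40 days became at least 2-fold lower with quantile normalization (-1.16) and with a pseudocount of 0.1 (-1.05). No called ratio changed sign. No listed gene passed limma under any setting; adjusted p for withdrawal ran from 0.185 to 0.412 for Socs3, 0.185 to 0.358 for Bcl3 and 0.185 to 0.37 for Stat3. Of 360 recomputed counts for the other lists, 39 moved by more than 1.5 times or from or to 0. No paired analysis was possible because each group has 1 library, so no replicate number can serve as a block; cell type is a term of the limma fit, which compares the cultures within each cell type. Values listed at 0 limit what can be said of Lifr and Jak1.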
